A study of Sus scrofa with 6 samples.

Results

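The mevalonate arm of cholesterol synthesis carries acetyl-CoA units to squalene epoxide, the last open-chain intermediate before the sterol ring is closed. It was followed here through 8 enzymes (ACAT2, HMGCS1, MVK, PMVK, IDI1, FDPS, FDFT1 and SQLE), out of 10915 genes with values in the deposited table. The enzymes were chosen by their place in the pathway, with earlier results of these data known. The table listed 7 of them under their own symbol. The row of IDI1 carries only the identifier ENSSSCG00000029066, which the reference gene table pairs with that symbol. All 8 had a mean of at least 1 FPKM (fragments counted per kilobase of transcript and scaled to library size), so all 8 were among the 10846 genes tested. The list does not cover every step of this stretch.

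The RNA came from porcine endometrial epithelial cells, which line the uterus, grown as primary cultures to passage 3 in a medium with fetal bovine serum. The exosome group received 10 µg per well of exosomes, small membrane vesicles pelleted with a commercial reagent out of boar seminal fluid (its sperm-rich fraction), and was kept with them for 48 h. The labels give 3 seminal fluids as the source, without saying whether they were pooled or which library received which. The control group was not given exosomes, and no label says whether it received the vehicle or the precipitant. Each group held 3 libraries. The animals behind the uteri, the seminal fluids and the wells are not tied to a replicate in the labels, so a p-value here reflects library-to-library spread alone, and that spread may be technical.

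Cells build isoprenoids by joining acetyl-CoA into HMG-CoA, turning this into mevalonate, and phosphorylating and trimming mevalonate to the isoprene units from which farnesyl diphosphate and then squalene are made. Farnesyl diphosphate is also the branch point to prenylated proteins, dolichol and ubiquinone. Genes of the whole route are classical targets of the SREBP transcription factors, membrane proteins that are held in the endoplasmic reticulum by SCAP and INSIG when sterols are plentiful and are cut free by the proteases MBTPS1 and MBTPS2 when sterols run short.

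The libraries were close in depth. The absolute number of fragments is unknown, but low genes piled up at 1 ratio for each pair of libraries, which gave depths of 0.875 to 0.943 in the exosome libraries and 0.92 to 1 in the control libraries, relative to control replicate 1. Of 7 epithelial markers 6 were in the table, at summed levels of 9015 to 9333 FPKM in the control and 7972 to 8781 FPKM in the exosome libraries. CDH1 was not analysed here. EPCAM, an adhesion protein of epithelia listed as TACSTD1, was at 345.8 ± 12.5 and 357.9 ± 15.3 FPKM (SD, n = 3 per group), which is 0.05 higher on the log2 scale. The other 5 epithelial markers had lower means in the exosome group: CLDN4 by a log2 change of -0.35, MUC1 by -0.21 and KRT8 by -0.12, each at an unadjusted limma p under 0.05, and KRT19 by -0.13 and KRT18 by -0.04, above it. Of 9 stromal and fibroblast markers 5 were in the table, with THY1, listed as CD90, at 2328 ± 93.7 and 1849 ± 69.4 FPKM, and their sums were 2788 to 3042 and 2274 to 2494 FPKM. The 1 endothelial marker found of 5 (KDR) summed to 0.968 to 1.96 FPKM over all libraries, and the 2 leukocyte markers found of 6 (CD14 and CD68) to 8.06 to 11.8 FPKM. The 9 mitochondrially encoded transcripts found by symbol made up 4.30% to 4.40% of all FPKM in the control libraries and 3.43%, 4.01% and 3.32% in exosome replicates 1, 2 and 3. Sums of epithelial and stromal markers, and this mitochondrial share, were therefore lower in the exosome libraries, as were the enzymes described next, and their part in the result was not tested. Exosome replicate 2, which stands apart in the enzymes, was at 8397 FPKM in epithelial and 2467 FPKM in stromal markers, between the other exosome libraries. In the mitochondrial share, at 4.01%, it was the exosome library nearest the control, as it was in the enzymes. In RNA from a whole culture, fewer cells of a type and less RNA per cell cannot be told apart.

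The design asks how transcripts of endometrial epithelial cells differ after contact with seminal exosomes. All 8 enzymes had a lower mean in the exosome group, with log2 changes from -0.43 for ACAT2 to -1.0 for HMGCS1 and a median of -0.59, where the median over all genes tested was -0.00229. The level was strongly lower in exosome replicates 1 and 3 and close to the control in exosome replicate 2. In limma, 0 of the 8 passed an adjusted p of 0.05 (0.0% of all genes tested passed in this direction), and 8 of 8 were lower at an unadjusted p under 0.05 (7.5% of all genes). The 3 exosome values lay under all 3 control values for 5 of the 8 enzymes (MVK, PMVK, FDPS, FDFT1 and SQLE), against 10.4% of all genes. The FPKM sums were 721273 to 732922 in the control and 690258 to 711250 in the exosome libraries. Every exosome library thus had a smaller sum than every control library. With these sums made equal, 8 of 8 stayed lower at an unadjusted limma p under 0.05 (3.87% of all genes). The median log2 change over all genes was then 0.0442, and the count of 5 became 3 (5.38% of all genes). It became 8 without control replicate 1 (16.0% of all genes) and 8 without exosome replicate 2 (21.0%), where fewer libraries make separate groups more frequent. The count of 8 at an unadjusted p became 5 without exosome replicate 1 (4.41% of all genes) and 5 without exosome replicate 3 (7.48%). Ordered from the most lowered gene upwards, the 8 enzymes took places 8 (HMGCS1) to 116 (ACAT2) among the 10846 genes.

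The members and lists were chosen with earlier results of these data known, so these counts describe the enzymes and are not independent evidence of their direction.

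**Figure D1:**
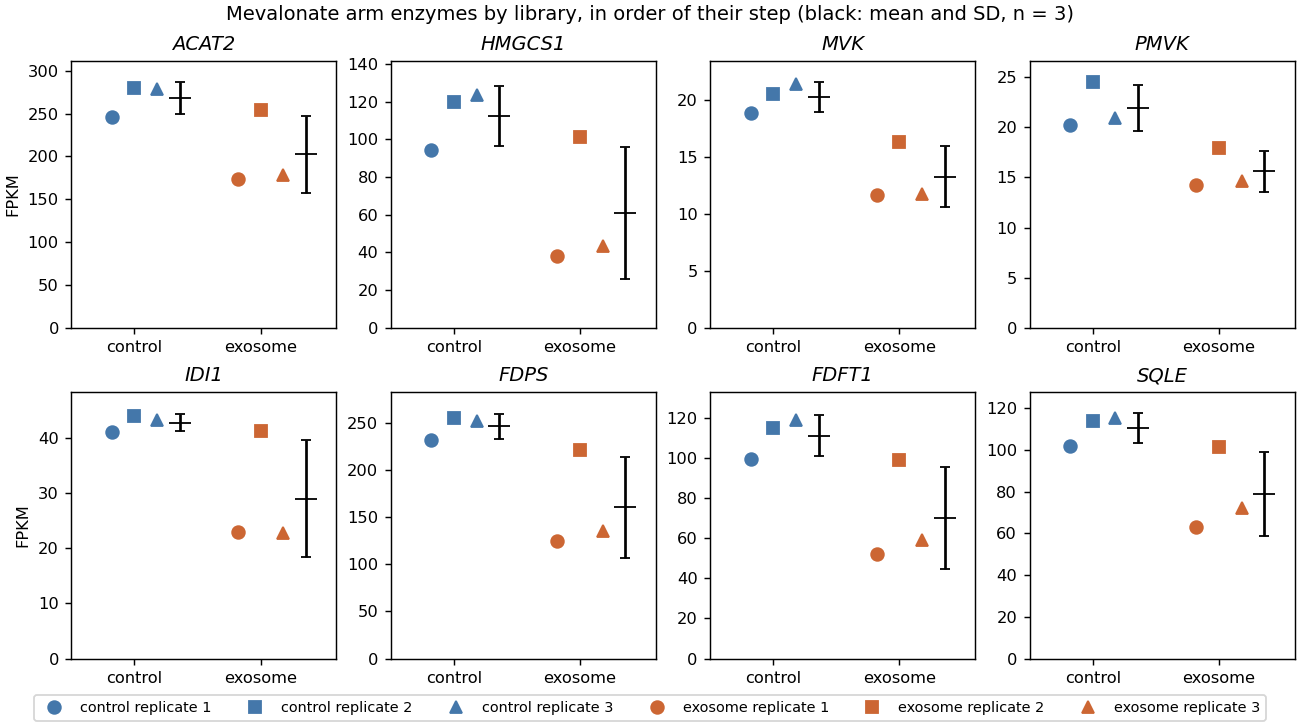
Level of each enzyme (FPKM, axis from 0) in the 3 control libraries (blue) and the 3 exosome libraries (orange), in order of the steps; the marker shape gives the replicate number and black bars the mean and SD. Exosome replicates 1 and 3 lie under every control library in all 8 panels, while exosome replicate 2 is the exosome library nearest the controls.

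The first enzymes of the route condense acetyl-CoA. ACAT2 (ENSSSCG00000004049; chromosome 1, 7600616 to 7612861 in RefSeq's annotation of Sscrofa11.1), the cytosolic thiolase that makes acetoacetyl-CoA, was at 246.7, 279.8 and 278.9 FPKM in control replicates 1, 2 and 3. In exosome replicates 1, 2 and 3 it was at 173.9, 254.7 and 178.6 FPKM. Exosome replicate 2 lay within the control range, so the groups overlapped, and the log2 change was -0.43 with an SE of 0.139 (limma adjusted p = 0.313). HMGCS1 (ENSSSCG00000016872; chromosome 16, 27936225 to 27957261), the cytosolic synthase that adds a further acetyl group to give HMG-CoA, was at 94.2, 120.0 and 123.4 FPKM in the control libraries. It was at 38.0, 101.3 and 43.6 FPKM in the exosome libraries. It had the largest log2 change among the 8 enzymes, -1.0 with an SE of 0.326 and a 95% interval from -1.76 to -0.25 (limma adjusted p = 0.313). Its groups overlapped too, because exosome replicate 2 stood above control replicate 1.

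Mevalonate is next phosphorylated in consecutive reactions by MVK and PMVK. MVK (ENSSSCG00000009931; chromosome 14, 41320790 to 41357437), mevalonate kinase, was at 18.8, 20.5 and 21.3 FPKM in control replicates 1 to 3 and at 11.7, 16.3 and 11.7 FPKM in exosome replicates 1 to 3. All exosome values lay below the control range, and with a log2 change of -0.59 and an SE of 0.124 this gene had the smallest p of the 8 (unadjusted p = 0.00157, limma adjusted p = 0.215). PMVK (ENSSSCG00000006535; chromosome 4, 94861500 to 94913743), phosphomevalonate kinase, was at 20.3, 24.6 and 20.9 FPKM in the control and 14.3, 17.9 and 14.6 FPKM in the exosome libraries. Its groups did not overlap either, and the log2 change was -0.47 (SE 0.104) (limma adjusted p = 0.234). These kinases were the enzymes for which exosome replicate 2 stood farthest from the controls, at 80.8% (MVK) and 81.7% (PMVK) of the control mean. In the other 6 enzymes that library was at 89.0% to 96.7%.

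IDI1 and FDPS handle the isoprene units. IDI1, the isomerase that interconverts isopentenyl and dimethylallyl diphosphate, was at 41.0, 44.0 and 43.1 FPKM in the control and 22.9, 41.3 and 22.7 FPKM in the exosome libraries. Exosome replicate 2 was 0.288 FPKM above the lowest control, while the other exosome libraries were at 53.6% and 53.2% of the control mean. Its log2 change was -0.60 with an SE of 0.204 (limma adjusted p = 0.325). FDPS (ENSSSCG00000006512; chromosome 4, 94500140 to 94514820), which joins these units into farnesyl diphosphate, was at 231.6, 255.5 and 251.9 FPKM in the control and 124.3, 221.5 and 135.1 FPKM in the exosome libraries. The groups did not overlap, and the log2 change was -0.66 with an SE of 0.192 (limma adjusted p = 0.284).

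The last enzymes commit farnesyl diphosphate to sterols. FDFT1 (ENSSSCG00000026044; chromosome 14, 14976259 to 15010701), squalene synthase, was at 99.4, 115.0 and 119.0 FPKM in the control and 51.9, 98.9 and 59.2 FPKM in the exosome libraries. Its log2 change was -0.71 with an SE of 0.212 (limma adjusted p = 0.29), and the highest exosome value lay 0.524 FPKM under the lowest control value. SQLE (ENSSSCG00000005970; chromosome 4, 14669789 to 14700152), squalene epoxidase, a known rate-limiting enzyme of the sterol branch, was at 102.1, 113.9 and 115.2 FPKM in the control and 63.2, 101.6 and 72.2 FPKM in the exosome libraries. Its groups were also separate by a narrow margin, 0.498 FPKM, the log2 change being -0.50 (SE 0.155) (limma adjusted p = 0.302).

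Levels along the route can be set side by side because FPKM are per transcript length. In the control libraries the order was ACAT2 (268.4 FPKM), FDPS (246.3), HMGCS1 (112.5), FDFT1 (111.1), SQLE (110.4), IDI1 (42.7), PMVK (21.9) and MVK (20.2). The ranges of ACAT2 and FDPS overlapped, as did those of HMGCS1, FDFT1 and SQLE, and those of PMVK and MVK. Within a library the order could still be steady: ACAT2 was above FDPS in 6 of 6 libraries and PMVK above MVK in 5 of 6, while HMGCS1 was above FDFT1 in 3 of 6. Between the sets the ranges were separate, with control means 2.19 times apart from FDPS to HMGCS1, 2.58 times from SQLE to IDI1 and 1.95 times from IDI1 to PMVK. In the exosome libraries FDPS and HMGCS1, SQLE and IDI1, and IDI1 and PMVK were again separate. HMGCS1 (61.0 FPKM) had a lower mean there than FDFT1 (70.0) and SQLE (79.0), and its lowest exosome value, 38.0 FPKM, was under the highest of IDI1, 41.3 FPKM. The enzymes of mevalonate phosphorylation were thus the least abundant of the 8 in both groups. Summed over the 8 enzymes, the level was 853.9, 973.2 and 973.8 FPKM in control replicates 1 to 3 and 500.1, 853.5 and 537.7 FPKM in exosome replicates 1 to 3.

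**Figure D2:**
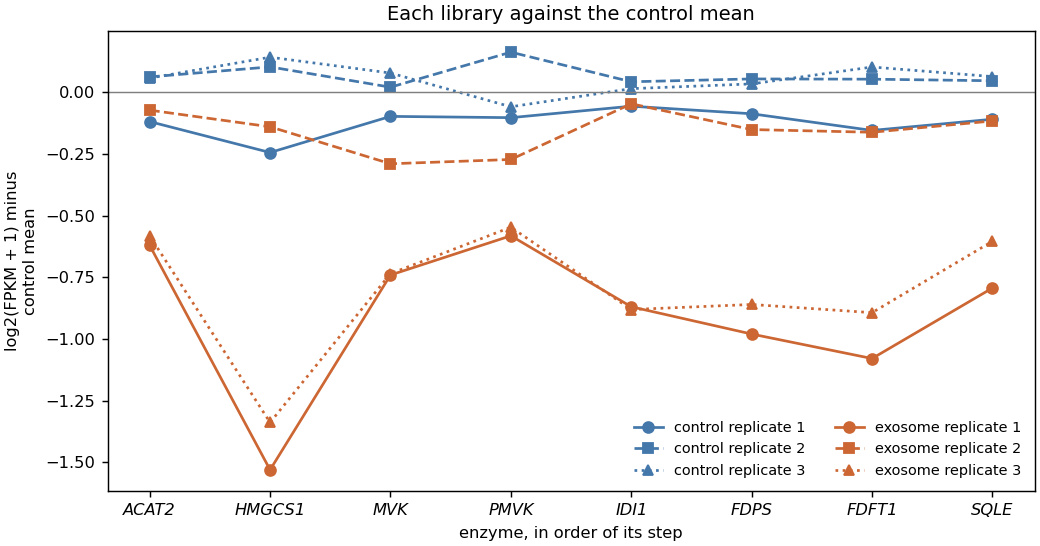
Each library's level of each enzyme minus the control mean, on the log2(FPKM + 1) scale, in order of the steps. Exosome replicates 1 and 3 follow one course, deepest at HMGCS1 (-1.53 and -1.34) and shallowest at PMVK (-0.58 and -0.55), and exosome replicate 2 runs between -0.05 and -0.29.

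Relative to the control mean on the log2(FPKM + 1) scale, the median over the 8 enzymes was -0.83 and -0.80 in exosome replicates 1 and 3 and -0.15 in exosome replicate 2. Control replicate 1 stood at -0.11 and control replicates 2 and 3 at 0.05 and 0.06. Averaged over the 8 enzymes, the log2 ratio of control replicate 1 to exosome replicate 2 was 0.03, and that of exosome replicate 1 to exosome replicate 2 was -0.74. Over all genes tested, exosome replicate 2 was the highest of the 3 exosome libraries in 36.2% of genes. Among the 5508 genes with a lower mean in the exosome group, it was the exosome library nearest the control in 46.4%. For all 8 enzymes exosome replicate 2 was both the highest exosome library and the nearest to the control.

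This spread within the exosome group was wide for the set. The SD of log2(FPKM + 1) over the exosome libraries ran from 0.169 for PMVK to 0.754 for HMGCS1, where the median over all genes was 0.0997, and HMGCS1 stood at the 99.7th percentile of the genes tested. Among control libraries the 8 SDs lay between 0.0511 for IDI1 and 0.213 for HMGCS1, with a median of 0.0693 over all genes. Across the 6 libraries the 28 pairs of enzymes had correlations from 0.908 (PMVK with IDI1) to 0.999 (FDFT1 with SQLE). With each group's mean subtracted they still ran from 0.793 (MVK with PMVK) to 0.998 (HMGCS1 with FDFT1), with a median of 0.976. These describe 6 libraries that share their preparation, and each pair shares the contrast between exosome replicate 2 and the others.

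Exosome replicate 2 held the highest exosome value of all 8 enzymes, so leaving it out must deepen every change, and the fit without it describes the other 5 libraries and is no test free of the outcome. In that fit 8 of 8 passed an adjusted p of 0.05 in limma (1.88% of all genes passed as lower and 0.857% as higher), with log2 changes from -0.56 for PMVK to -1.43 for HMGCS1. The 2 remaining exosome libraries and 3 controls gave FDPS and IDI1 the smallest adjusted p, 0.00386 for each, and PMVK the largest, 0.0304. Leaving out replicate 2 of both groups put 7 of the 8 past the threshold in limma (0.424% of all genes passed as lower), and PMVK, at -0.48, had an adjusted p of 0.0687. That fit also drops exosome replicate 2, so the same limit holds for it. Leaving out replicate 1 or replicate 3 of both groups put 0 of the 8 past the threshold. Without exosome replicate 1 or without exosome replicate 3, MVK, PMVK, FDPS, FDFT1 and SQLE were the 5 enzymes lower at an unadjusted p under 0.05, and 0 passed the adjusted threshold in limma. Exosome replicate 2 also had the lowest weight, 0.412, when limma estimated the reliability of each library from all genes. With those weights the adjusted p of the 8 lay between 0.0593 and 0.0693.

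**Figure D3:**
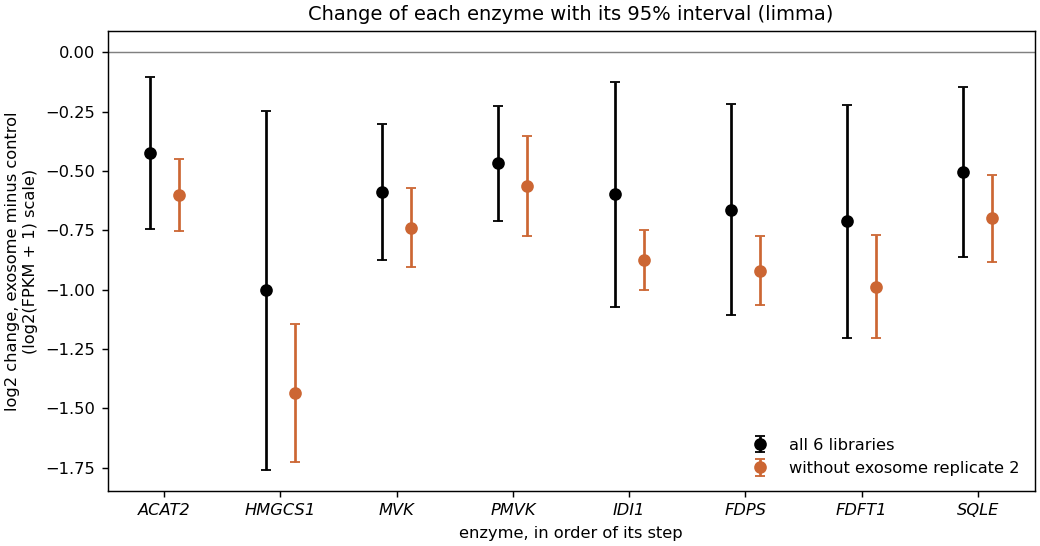
Log2 change of each enzyme (exosome minus control, log2(FPKM + 1) scale) with its 95% interval from limma, with all 6 libraries (black) and without exosome replicate 2 (orange). All intervals lie under 0 in both fits, and leaving the library out moves HMGCS1 from -1.0 to -1.43.

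Whether neighbouring enzymes of the set moved by different amounts was tested with the log2 ratio of their FPKM in each library, by an exact permutation test (two-sided, 7 pairs, smallest possible p 0.1). The ratio of SQLE to FDFT1 was 0.04, -0.01 and -0.05 in the control and 0.28, 0.04 and 0.29 in the exosome libraries. This was the 1 pair whose groups did not overlap, with a difference of 0.21 and an exact p of 0.1 (adjusted p = 0.467 over the 7 pairs); control replicate 1 and exosome replicate 2 were both at 0.04 after rounding.

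HMGCS1 relative to ACAT2 differed by -0.59 between the groups (exact p = 0.2), and MVK relative to HMGCS1 by 0.39 (exact p = 0.4). These ratios show how much further HMGCS1 was lowered than ACAT2 and MVK, its neighbours in the set, in exosome replicates 1 and 3. The log2 ratio of HMGCS1 to ACAT2 was -2.19 and -2.04 there, against -1.33 in exosome replicate 2 and -1.39 to -1.18 in the control. FDFT1 relative to FDPS differed by -0.05, and FDPS relative to IDI1 by -0.05 (exact p = 0.4 for each). The adjusted p of the 7 pairs lay between 0.467 and 0.6. With a smallest possible exact p of 0.1, this test could not call any pair at 0.05. It therefore leaves undecided whether neighbouring enzymes of the set, which are not all consecutive steps of the route, moved by different amounts. Leaving out exosome replicate 2 raised the number of pairs with separate groups from 1 to 5, and leaving out control replicate 1 raised it to 3.

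Other genes around the route were taken from lists by pathway, with rows counted where a gene has more than 1 row. At an unadjusted p under 0.05 in limma, 7.5% of all genes tested were lower and 5.06% higher. The later sterol steps, from squalene epoxide to cholesterol, had 10 of 11 genes in the table and most resembled the 8 enzymes, with 10 of 10 lower at an unadjusted p under 0.05, 0 past the adjusted threshold in limma and a median log2 change of -0.50. TM7SF2, a sterol reductase, was at 25.2, 29.7 and 31.0 FPKM in control libraries, against 10.6, 21.1 and 14.0 FPKM with exosomes (a log2 change of -0.92, limma adjusted p = 0.234). EBP, a sterol isomerase, was at a log2 change of -0.44, and NSDHL, a sterol dehydrogenase, at -0.51. Of these 10, 6 had exosome values under all control values, against 10.4% of all genes.

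Genes of the branches from farnesyl diphosphate had 14 rows, centred near no change. Of these 1 was lower and 0 were higher at the unadjusted threshold, where 7.5% of all genes were lower and 5.06% higher. The count of 1 is near the share of all genes. The median log2 change was 0.02, with a range from -0.18 to 0.14. The 1 lower gene, RCE1, a protease that trims prenylated proteins, was at 29.4 ± 1.32 and 25.9 ± 0.303 FPKM (SD, n = 3 per group). GGPS1, which extends farnesyl diphosphate to geranylgeranyl diphosphate and so competes with FDFT1 for it, was at 23.4, 21.8 and 22.6 FPKM in the control and at 26.3, 24.8 and 23.8 FPKM in the exosome libraries. The lowest exosome value of GGPS1, 23.8 FPKM, was close to its highest control value, 23.4 FPKM. Its log2 change was 0.14 (SE 0.0595) (limma unadjusted p = 0.0507, adjusted p = 0.400). RABGGTB, a subunit of the Rab prenyltransferase, was at 0.11, and its identifier is listed under MSH4 in the reference table.

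Among enzymes that supply acetyl-CoA or belong to mitochondrial ketone body metabolism, at an unadjusted p under 0.05 the lower rows numbered 4 of 12 and the higher rows 0. Over all genes 7.5% were lower by this rule. The median log2 change of the list was -0.09. AACS, a cytosolic enzyme that activates acetoacetate for lipid synthesis, was at 28, 31.4 and 31.1 FPKM in control libraries, against 17.0, 24.7 and 20.7 FPKM with exosomes (a log2 change of -0.53, limma adjusted p = 0.234). ACSS2, which makes cytosolic acetyl-CoA from acetate, was at 2.74 ± 0.295 and 1.59 ± 0.475 FPKM (log2 change -0.54, limma adjusted p = 0.258), and BDH1, a ketone body dehydrogenase, at -0.32. ACAT1, the mitochondrial counterpart of ACAT2, named with its values already known, stood at 47.2 ± 2.70 and 44.2 ± 1.75 FPKM, a log2 change of -0.09 (SE 0.0598) (limma adjusted p = 0.558).

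Of the genes that sense sterols and activate SREBP, 5 of 8 were in the table; SREBF1, SREBF2 and INSIG2 were not analysed here. INSIG1, itself a sterol-regulated gene, was at 46.3, 64.4 and 66.4 FPKM in the control and 17.9, 54.4 and 20.6 FPKM in the exosome libraries, the pattern seen in HMGCS1, with a log2 change of -1.07 (limma adjusted p = 0.333). It was the 1 gene of the 5 lower at an unadjusted p under 0.05 (7.5% of all genes were lower), and 0 were higher. STARD4, a sterol carrier, was at a log2 change of -0.34 and MBTPS2 at -0.10. SCAP was at 24.8 ± 0.811 and 25.6 ± 0.404 FPKM, a log2 change of 0.04 (limma adjusted p = 0.766).

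Genes of sterol export, storage and endosomal handling had 1 of 13 rows lower and 0 higher by the same unadjusted rule, with a median log2 change of -0.09. The count of 1 is near the share of all genes that were lower by this rule, 7.5%. The lower one was SCARB1, a lipoprotein receptor, at 103.5 ± 2.56 and 94.9 ± 2.52 FPKM (log2 change -0.12), and STARD3 and NPC1, which handle sterol at endosomes, were at -0.17 and -0.19. In fatty acid synthesis and desaturation 4 of 7 rows were lower and 0 higher (7.5% of all genes were lower), with a median of -0.35. FADS2, a desaturase of polyunsaturated fatty acids, was at 23.5, 31.7 and 33.6 FPKM in control libraries, against 6.22, 24.6 and 8.02 FPKM with exosomes (a log2 change of -1.35, limma adjusted p = 0.304), and FADS1 and ELOVL6 were at -0.74 and -0.35. Without exosome replicate 2, the numbers past the adjusted threshold in limma were 10 of 10 in the later sterol steps, 3 of 12 in acetyl-CoA supply, 3 of 7 in fatty acid synthesis, 1 of 5 in sterol sensing, 1 of 13 in sterol handling and 0 of 14 in the branches, all lower. Over all genes tested, 1.88% passed as lower in that fit. For all 10 genes of the later sterol steps exosome replicate 2 held the highest exosome value, so leaving it out must deepen their changes too. These counts are therefore no independent test. Differences between these lists and the 8 enzymes were not tested.

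**Figure D4:**
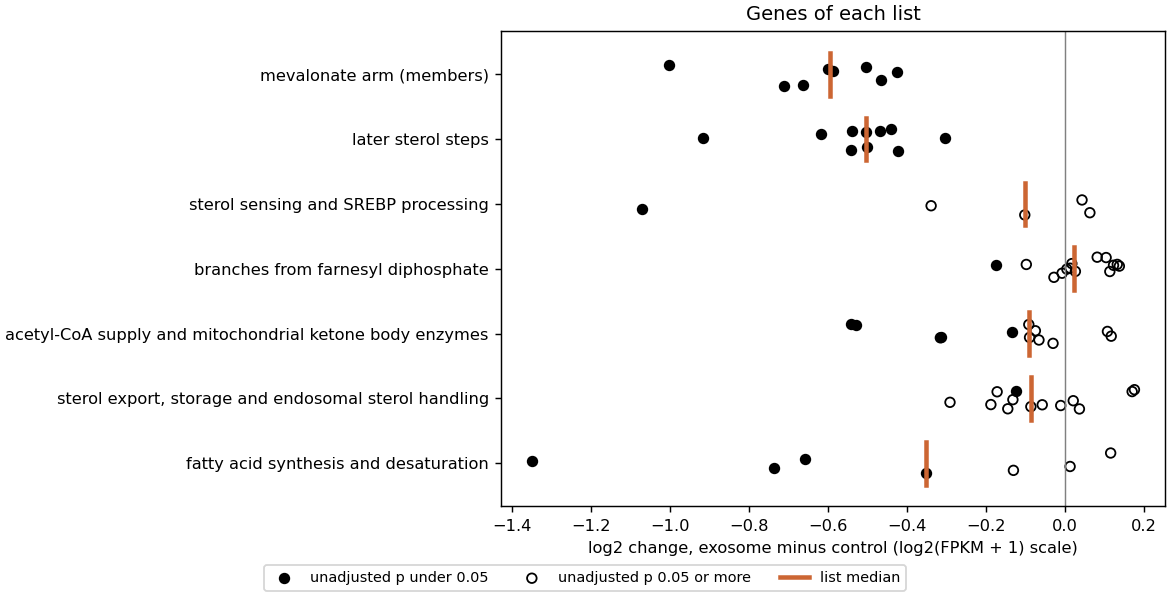
Log2 change (exosome minus control, log2(FPKM + 1) scale) of every gene of each list, with filled points for an unadjusted p under 0.05 and an orange bar for the list's median. The 8 enzymes and the later sterol steps have medians of -0.59 and -0.50, and the branches from farnesyl diphosphate have a median of 0.02.

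Genes whose pattern over the 6 libraries was most like that of the 8 enzymes were ranked by Pearson's correlation with their mean standardised log2(FPKM + 1). The first 8 outside the set were TMEM35 (0.999), MSMO1 listed as SC4MOL (0.998), DTX4 (0.997), CYP51A1 listed as CYP51 (0.996), SMAP1L (0.996), FADS2 (0.996), HSD17B7 (0.996) and the unnamed ENSSSCG00000026298 (0.996). MSMO1, CYP51A1 and HSD17B7 are enzymes of the later sterol steps. TMEM35 was at 6.67, 7.51 and 7.31 FPKM in the control and 3.75, 6.12 and 4.04 FPKM in the exosome libraries. At a lower bar, 540 of 10838 genes (4.98%) had a correlation over 0.9, and 455 (4.2%) one under -0.9. Each enzyme correlated with the mean of the other 7 at 0.935 (PMVK) to 0.997 (FDPS).

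Nearest genes along the chromosome were read from the RefSeq annotation, which gives no position for IDI1. PMVK and FDPS lie 346680 bases apart on chromosome 4, and MVK and FDFT1 lie 26310089 bases apart on chromosome 14. MMAB, an enzyme of vitamin B12 metabolism, starts 150 bases from MVK. It was at 7.80, 7.84 and 7.92 FPKM in the control and at 5.10, 7.79 and 4.99 FPKM in the exosome libraries, low in exosome replicates 1 and 3 as MVK was (log2 change -0.37, limma adjusted p = 0.364). RUSC1, 147 bases from FDPS, was at 11.0 ± 0.349 and 11.2 ± 1.77 FPKM (log2 change 0.02). On the other side of FDPS, at 22158 bases, PKLR, a pyruvate kinase, was at 3.03 ± 0.815 and 1.95 ± 0.270 FPKM (log2 change -0.43, limma adjusted p = 0.346). Its exosome replicates 1, 2 and 3 were at 1.65, 2.14 and 2.07 FPKM, so replicates 2 and 3 were close. Control replicate 2, at 2.10 FPKM, lay under exosome replicate 2. PBXIP1, 13848 bases from PMVK, was at a log2 change of -0.17. Beside FDFT1, the DNA repair gene NEIL2 (9954 bases) was at -0.21 and CTSB, a lysosomal protease (3438 bases), at -0.09. WTAP and MRPL18 near ACAT2, ADAR near PMVK and ZNF572 near SQLE lay between -0.01 and 0.03.

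The annotated span of ACAT2 overlaps that of TCP1, a subunit of the cytosolic chaperonin, by 94 bases, and that of PMVK overlaps KCNN3, a potassium channel gene, by 113 bases. The sources used here do not say whether fragments were counted by strand, so values of overlapping genes are uncertain to that extent. TCP1 was higher in the exosome libraries, at 136.1, 122.0 and 130 FPKM against 119.7, 117.3 and 109.9 FPKM in the control (log2 change 0.16, limma adjusted p = 0.338), the opposite direction to ACAT2. KCNN3 was at 4.98 ± 0.250 and 4.86 ± 0.602 FPKM (log2 change -0.04).

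**Figure D5:**
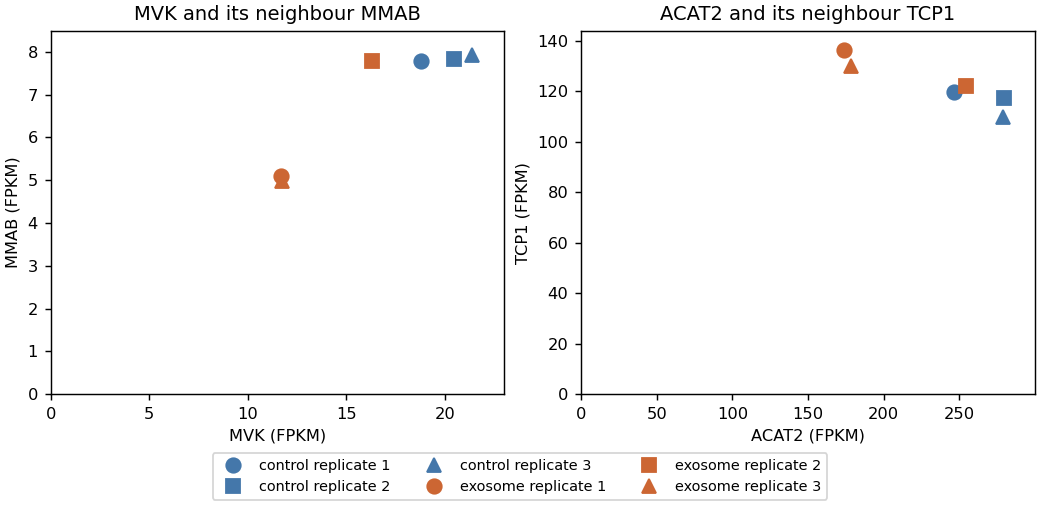
Level of MMAB against MVK and of TCP1 against ACAT2 in each library (FPKM, axes from 0; blue control, orange exosome, shape by replicate). Exosome replicates 1 and 3 are low in both MVK and MMAB, and they are low in ACAT2 but highest in TCP1.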

How the data were processed

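RNA was turned into libraries using a strand-marking mRNA kit (per the labels' protocols). The submitters' processing notes name bcl2fastq 1.8.4, TopHat, Cufflinks and Sscrofa11.1; for the annotation release and the strand setting, nothing was found in those sources. The header names no unit, so the authors' deposited values were read as FPKM from the tool and their range.

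Library columns were matched by name. Tests ran on log2(FPKM + 1), which understates changes of low genes, over the 10846 genes averaging 1 FPKM or more, using limma 3.58.1 under R 4.3.3 with its intensity trend, two-sided. The p-values were adjusted by Benjamini-Hochberg across every gene tested, at a threshold of 0.05. Relative depth came from the ratios at which low genes pile up between libraries. Exact permutation tests used scipy 1.17.1. The fit was tested on simulated data with planted changes and noise drawn independently for each gene and library. A deviation shared by many genes, as in exosome replicate 2, was not simulated. Members and lists were chosen with earlier results of these data known. Named genes were the 8 members, the 3 genes of smallest p in each other list plus SCAP and INSIG1, the 8 most alike genes, and chromosomal neighbours. Alternatives comprised 20 other fits. Some genes of sterol metabolism are not reported here, and a planned search of promoters for motifs was not run. Coordinates are those of RefSeq on Sscrofa11.1.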

Additional observations from a re-analysis of the deposited data

How the results depend on the processing

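All 8 enzymes kept a lower mean in the exosome group in each of the 20 other fits, and the median log2 change stayed between -0.81 and -0.47. The count past the adjusted threshold was 0 of 8 in limma in 18 of those fits. Leaving out 1 library gave 0 to 8, with the 8 when exosome replicate 2 was dropped, and dropping replicate 2 from both groups gave 7. The count lower at an unadjusted p under 0.05 was 5 to 8 when 1 library was left out (5 without exosome replicate 1 or 3). It was 4 when replicate 1 was dropped from both groups, and 2 (MVK and PMVK) when replicate 3 was, against 3.6% and 5.16% of all genes. Enzymes whose groups did not overlap numbered 3 with equal FPKM sums and 5 to 8 when 1 library was left out, an alternative added after seeing the data (8 without control replicate 1 or exosome replicate 2; 12.9% to 21.0% of all genes over these 6 settings, and 5.38% with equal sums). Pairs of neighbouring enzymes of the set with separate ratios numbered 1 to 5 when 1 library was left out (3 without control replicate 1, 2 without control replicate 2 or exosome replicate 3). The causes of these moves were not tested beyond the smaller number of libraries. Other pseudocounts, filters, scalings and variance models left both limma counts as they were. With the replicate number as a block (replicate block), 0 of 8 passed in limma, with adjusted p from 0.0984 (PMVK) to 0.302 (IDI1). The unadjusted p in that fit ran from 0.00022 (PMVK) to 0.00808 (IDI1), against 0.00157 (MVK) to 0.0192 (IDI1) in the main fit. The SE of HMGCS1 was 0.225 with the block and 0.326 in the main fit. Deviations of same-numbered libraries correlated at 0.161, 0.144 and -0.0701, and control replicate 3 correlated best with exosome replicate 2 (0.169). With so few libraries these correlations cannot decide whether the numbers are pairs. The labels tie no animal or well to a replicate, so the main fit used no pairs. Absolute depth is unknown, so no counting error is given.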
